A study of Mus musculus with 24 samples.

Results

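Transfer RNAs for threonine were followed through small RNA libraries of epididymosomes, the vesicles shed into the lumen of the epididymis. The family comprised every tRNA reference whose name carries the amino acid code Thr, which gave 17 of the 408 tRNA references and of the 115485 references in 6 RNA classes. By anticodon they fell into 9 references of AGT, 4 of CGT and 4 of TGT, written in DNA letters as in the reference names. The 17 members were taken by name alone. The family as a whole was chosen by values already seen in these libraries, namely tests of tRNA families by amino acid in the comparisons with control, so that a difference from control reported here describes these mice and is no independent evidence of a response.

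All mice were adult C57BL/6J males of 7 to 8 weeks, and the labels name no altered allele. Osmotic pumps delivered 50% DMSO alone to control mice, and DBP, DEHP or their mixture to the others, each agent at 2.5 mg/kg/day over 6 weeks. Both agents are plasticisers: DBP is dibutyl phthalate, and DEHP is the diester of phthalic acid with branched ethylhexyl chains. Each of the 4 groups had 6 libraries from 6 treated mice, per the labels. Lane 6 of the sequencer carried libraries 1 to 3 of every group and lane 7 carried libraries 4 to 6. Vesicles were taken from the fluid of the cauda, the storage end of the duct, after sperm had been spun out, so that a lower value could mean fewer vesicles carrying an RNA or less of it in each, which cannot be told apart.

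Threonine is encoded by 4 codons that begin with AC. The AGT tRNAs have adenosine as their first anticodon base, which is deaminated to inosine and then pairs with several bases at the end of the codon. The CGT tRNAs read ACG, and the TGT tRNAs read codons ending in a purine. Threonine tRNAs share with other tRNAs for codons beginning with A the modified base t6A (N6-threonylcarbamoyladenosine) beside the anticodon. In epididymosomes and sperm, tRNA reads come largely from fragments, mainly of the 5′ side, and such fragments have been studied as carriers of paternal exposure. A read count per reference does not say which part of the tRNA was read.

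The 17 references held 1189057 reads over the 24 libraries. They made up 1.28% ± 0.367 (SD, n = 24) of tRNA reads and 0.444% ± 0.0854 of reads on the 6 classes. Each library held 7.94 to 14.7 M reads on those classes, where M stands for 1e6. All 17 references had reads in every library. The 74-base, 73-base and 72-base references matched RefSeq's mouse list in number: 9 AGT genes, 4 CGT genes and 4 TGT genes with equal lengths. Which gene each reference stands for is not stated.

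By anticodon, TGT references took 51.9% ± 5.51 of threonine reads, AGT 46.1% ± 5.09 and CGT 2.09% ± 0.687 (SD, n = 24). TGT ranged from 39.8% to 61.0% of threonine reads across libraries and AGT from 36.9% to 57.1%, so that either could be the larger in a given library. CGT stayed between 1.41% and 3.75%, below both in every library. Per base of reference, TGT had 7.92 RPM (reads per 1e6 reads on the 6 classes), AGT 3.04 and CGT 0.310.

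Within the AGT references, reads were concentrated on AGT-2-1. That reference had 315940 reads, 27.1% ± 3.93 of threonine reads and 15.97 RPM per base, the highest of the 17. AGT-4-1 followed among AGT references with 83429 reads. AGT-1-1, AGT-1-2, AGT-1-3 and AGT-3-1 had 21767 to 37717 reads each, AGT-6-1 had 12243 and AGT-5-1 had 2089. AGT-7-1 was the least read of all, at 281 reads in total and 4 to 23 per library.

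A group of 3 TGT references carried nearly all TGT reads. TGT-3-2 had 231547 reads and 11.8 RPM per base, TGT-2-1 had 230550 and TGT-3-1 had 158841. The 74-base reference TGT-1-1 had 2539. Among CGT references, CGT-1-1 led with 13161 reads and 0.681 RPM per base, followed by CGT-2-1 with 8435, CGT-4-1 with 1954 and CGT-3-1 with 752. Both leading CGT references are 72 bases long, and CGT-3-1 and CGT-4-1 are 74.

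**Figure D1:**
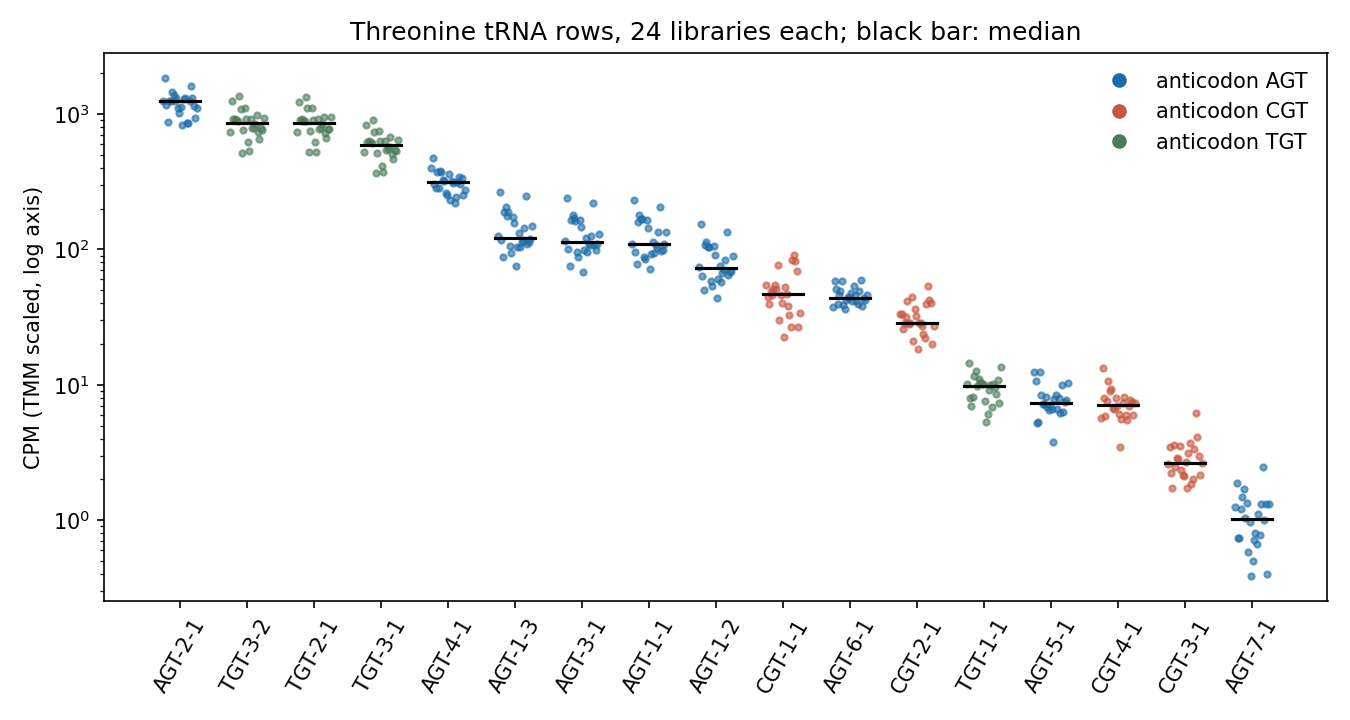
Level of each threonine tRNA reference in CPM on a log axis, with a point per library (24 each) coloured by anticodon and a black bar at the median. AGT-2-1 lies at the top and AGT-7-1 at the bottom, with medians of 1239 and 1.02 CPM.

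In the names of these references, as in the genomic tRNA database, the number after the anticodon marks a mature sequence and the last number a gene copy. Copies with the same mature sequence, such as TGT-3-1 and TGT-3-2, therefore cannot be told apart by reads inside the tRNA, and how the authors shared such reads is not stated. The files show a nearly fixed division. Of the reads on TGT-2-1, TGT-3-1 and TGT-3-2 together, TGT-2-1 took 37.1% ± 0.304, TGT-3-1 25.6% ± 0.321 and TGT-3-2 37.3% ± 0.313 (SD, n = 24). Counting error alone would give SDs of 0.311, 0.281 and 0.311. The spread between libraries in this division was thus close to counting error, with a chi-square of 1.06 per degree of freedom.

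A second such set was found among AGT references. AGT-1-1, AGT-1-2, AGT-1-3 and AGT-3-1 took 26.4%, 17.1%, 29.6% and 26.9% of their common sum, with a chi-square of 1.10 per degree of freedom. Within each set the references moved together, so that counts of references from a set are not counts of separate measurements; whether they share reads was not tested. The sets were picked after the counts were seen, so these chi-square values only describe them. Over all 17 references the chi-square was 65.4 per degree of freedom.

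Other references of one anticodon, which by name have different mature sequences, did vary against each other. CGT-1-1 took 60.4% ± 4.02 of the reads on CGT-1-1 and CGT-2-1 (54.9% to 68.0%), where counting alone gives an SD of 1.72. AGT-2-1 took 79.1% ± 1.88 of the reads on AGT-2-1 and AGT-4-1, against 0.318 from counting. Of the 136 pairs of references, 25 had a chi-square under 2 per degree of freedom and 51 had one over 20, and references with few reads give low values because their counts are small.

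**Figure D2:**
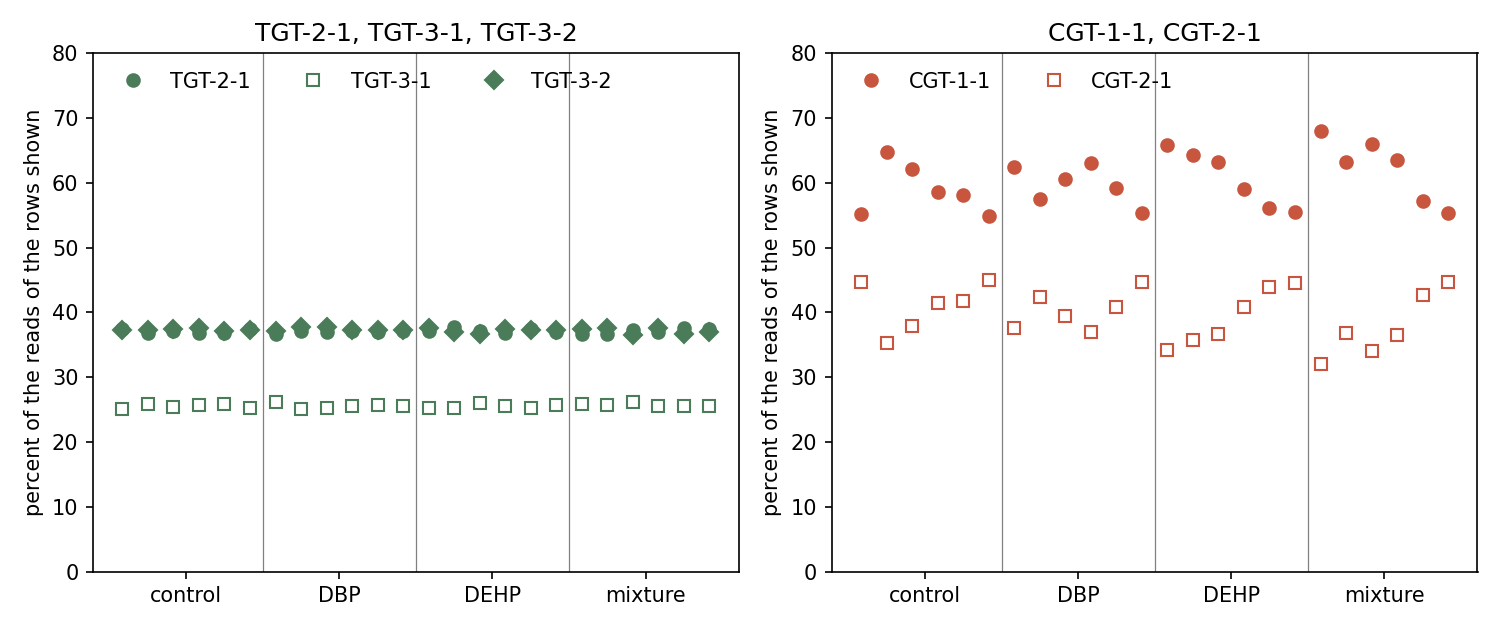
Percent of the reads of the references shown in each panel (y axis), in the 24 libraries ordered by group and by replicate number within a group. The 3 TGT references lie on level lines near 37.1%, 25.6% and 37.3%, while CGT-1-1 moves between 54.9% and 68.0% of its sum with CGT-2-1.

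Libraries numbered 5 and 6 in every group stood apart from libraries 1 to 4. Threonine references made up 1.71% ± 0.236 of tRNA reads in libraries 5 and 6 (SD, n = 8) and 1.06% ± 0.173 in libraries 1 to 4 (n = 16). tRNA reads as a whole were 30.6% ± 2.59 of the 6 classes in libraries 5 and 6 and 38.3% ± 4.01 in the others. In CPM (counts scaled by TMM, a factor per library that evens out composition), threonine reads were 4371 ± 529 and 4498 ± 974. The TMM factors behind these values were 1.20 ± 0.0905 and 0.920 ± 0.110. The share of tRNA reads was thus higher in libraries 5 and 6 while the scaled level was not. Unscaled, threonine reads ran from 0.391% to 0.592% of the 6 classes in libraries 5 and 6. In libraries 1 to 4 they ran from 0.296% to 0.554%.

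The makeup of the family moved with the same split. The 4 references AGT-1-1 to AGT-1-3 and AGT-3-1 took 27.3% ± 2.04 of AGT reads in libraries 5 and 6 and 21.1% ± 4.06 in the others, with the higher mean in libraries 5 and 6 of each group. AGT-2-1 took 55.5% ± 1.00 and 60.2% ± 3.06 of AGT reads, with the lower mean in libraries 5 and 6 of each group. For CGT-1-1 the levels of 38.0 ± 9.26 and 55.4 ± 19.9 CPM differed mainly through the mixture, and the DBP libraries 5 and 6 (45.8 and 51.2 CPM) lay within the range of DBP libraries 1 to 4 (39.6 to 54.8 CPM). In RPM, CGT-1-1 stood at 45.3 ± 11.6 in libraries 5 and 6 and 50.9 ± 19.7 in the others, and with DBP the order was the other way, at 59.5 and 40.3. The numbers 5 and 6 are balanced over the 4 groups, but all lie on lane 7, and the labels do not say what they mark. Some results without those libraries are given below.

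The mitochondrial threonine tRNA is a separate gene, mt-Tt, counted in a class outside the 6. Its sequence is shown because it is the threonine tRNA whose bases were at hand (GENCODE M21, GRCm38, chrM:15289-15355, plus strand, 67 bases), with the anticodon TGT in capitals.
mt-Tt: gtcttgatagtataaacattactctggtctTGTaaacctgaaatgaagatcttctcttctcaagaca
It had 533 reads in all. Libraries 5 and 6 of the 4 groups held 11 to 94 of these each and libraries 1 to 4 held 0 to 17.

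The first question of the design was whether exposure changed the RNA cargo relative to solvent. Threonine references made up 1.17% ± 0.332 of tRNA reads in control, 1.34% ± 0.490 with DBP, 1.35% ± 0.362 with DEHP and 1.26% ± 0.333 with the mixture (SD, n = 6 each). The lowest, median and highest shares were 0.813%, 1.11% and 1.75% in control, 0.804%, 1.18% and 2.14% with DBP, 0.902%, 1.39% and 1.80% with DEHP, and 0.979%, 1.10% and 1.75% with the mixture. The groups overlapped over most of their range. No test of this summed share was made.

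In the fit across all 7454 features, edgeR's quasi-likelihood test with Benjamini-Hochberg adjustment called 0 of the 17 references at adjusted p under 0.05 in each comparison with control, where the background was 0% of all features. At unadjusted p under 0.05 it marked 5 references with DBP, 1 with DEHP and 3 with the mixture, all of them higher. Of the 5 with DBP, 3 were AGT-1-1, AGT-1-2 and AGT-1-3, which moved together and are not separate measurements. The background over all features was 4.92%, 2.88% and 2.72% in either direction, and 2.46%, 1.38% and 1.25% for higher alone. Of the 323 tested tRNA references other than threonine, 53, 7 and 8 were higher at that p and 0 lower. More higher references with DBP than the all-feature share was thus not particular to threonine. The threonine counts rested on single libraries and on the processing. For DBP the count was 0 with library totals, with no filter, with the tRNA class on its own, on lane 7 and without libraries 5 and 6, and it was 2 on lane 6. It was 0 without control library 2, DBP library 2 or DBP library 6, 1 without control library 1, 2 without control library 6 or DBP library 5, and 10 without DBP library 3. Without control library 3, DEHP library 5 or 6, or mixture library 1, 5 or 6, it was 3. For DEHP the count was 0 with no filter, with the tRNA class on its own and on lane 7, and 3 with library totals or on lane 6. It was 2 without control library 5, 6 without DEHP library 4 and 8 without DEHP library 3. For the mixture the count was 0 with the tRNA class on its own and on lane 7, and 5 on lane 6 or without mixture library 5. It was 2 without control library 1, 2, 3 or 6, or mixture library 4 or 6. DESeq2 marked 6, 1 and 4 at unadjusted p under 0.05 and limma 7, 7 and 4, and both called 0 of the 17 after adjustment. The background shares in this paragraph come from the edgeR fit across all 7454 features. None is given for other settings or with libraries left out, so those counts are not read as a result. The criterion in the labels (at least 1.5-fold, p under 0.01, with no statement whether p was adjusted) was met by 0 references with DBP, 0 with DEHP and 1 with the mixture, CGT-1-1, against a background of 0.724%, 0.389% and 0.416%.

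The log2 fold change against control was above 0 for 17 of 17 references with DBP, 16 of 17 with DEHP and 17 of 17 with the mixture. Its median over the references was 0.39, 0.36 and 0.39, and the mixture's median was 0.20 without mixture library 2. Over all tRNA references tested (340) the median was 0.32, 0.17 and 0.14, and over all features -0.01, -0.02 and -0.02. Without libraries 5 and 6 the threonine medians were 0.41, 0.39 and 0.51, with 15, 16 and 17 of 17 above 0. The tRNA medians were then 0.48, 0.18 and 0.32. When the tRNA class was scaled on its own, which moved the tRNA median to 0.04, -0.06 and -0.08, the threonine medians became 0.12, 0.10 and 0.13, with 14, 13 and 9 of 17 above 0. The direction of single members against control thus depended on the scaling. The 3 comparisons share the 6 control libraries, so that they are not separate evidence.

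The lanes gave different sizes for these medians. On lane 6 (libraries 1 to 3) the median threonine log2 fold change was 0.47 with DBP, 0.52 with DEHP and 0.56 with the mixture. On lane 7 (libraries 4 to 6) it was 0.16, 0.18 and 0.13. Over all tRNA references tested the medians were 0.68, 0.35 and 0.44 on lane 6. On lane 7 they were -0.11, -0.001 and -0.14. Lower medians on lane 7 were thus not particular to threonine, and with DBP on lane 6 the threonine median lay below the tRNA median. The difference between lanes was not tested.

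**Figure D3:**
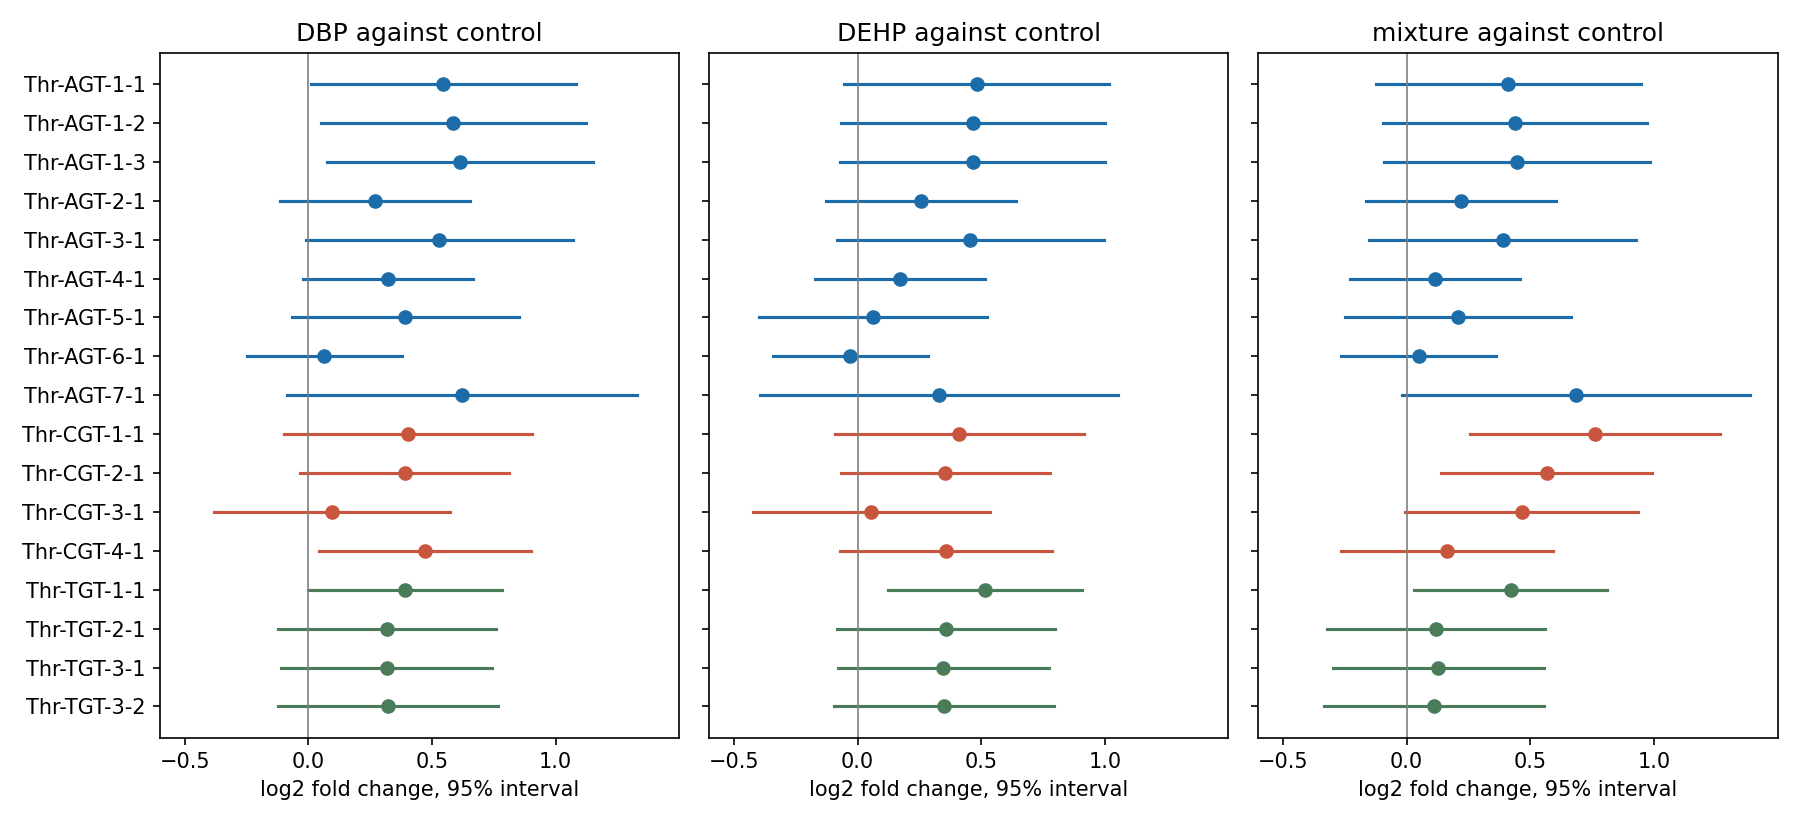
Log2 fold change against control of each threonine tRNA reference (x axis, edgeR fit) with its 95% interval, in a panel per exposed group, coloured by anticodon. Most intervals reach across 0. For the mixture, CGT-1-1 lies farthest from it, at 0.76 with an interval of 0.26 to 1.27.

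For the AGT references, which read through inosine, the summed level in control libraries had a lowest, median and highest value of 1468, 1671 and 2120 CPM. The DBP libraries had 1493, 2189 and 3277 CPM, the DEHP libraries 1863, 2014 and 2518 CPM, and the mixture libraries 1646, 1987 and 2846 CPM. Every exposed group overlapped the controls, and 3 DBP libraries, 2 DEHP libraries and 1 mixture library lay above the highest control. On the log2 scale the sum differed from control by 0.34 ± 0.19 (SE) with DBP, 0.30 ± 0.19 with DEHP and 0.24 ± 0.19 with the mixture, and every 95% interval held 0 (-0.05 to 0.74, -0.09 to 0.69 and -0.15 to 0.63). Without mixture library 2 the mixture value was 0.15.

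AGT-1-3, whose reads run with AGT-1-1, AGT-1-2 and AGT-3-1, had the smallest p of the 17 in the DBP comparison. Its lowest, median and highest level was 75.6, 108 and 132 CPM in control and 88.0, 157 and 264 CPM with DBP. The groups overlapped, and 3 of 6 DBP libraries lay above all controls. AGT-1-3 had a log2 fold change of 0.61 ± 0.26, with an unadjusted p of 0.0269 and an adjusted p of 0.934 (edgeR, Benjamini-Hochberg). The most-read AGT reference, AGT-2-1, had log2 fold changes of 0.27 ± 0.19, 0.26 ± 0.19 and 0.22 ± 0.19 with DBP, DEHP and the mixture. Its levels were 834, 988 and 1305 CPM (lowest, median, highest) in control, 872, 1242 and 1845 CPM with DBP, 1023, 1272 and 1453 CPM with DEHP, and 937, 1199 and 1619 CPM with the mixture. These ranges overlapped throughout.

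The TGT references gave similar sizes with either phthalate alone. Their sum had a lowest, median and highest level of 1435, 2127 and 2471 CPM in control, 2003, 2431 and 3324 CPM with DBP, 1408, 2688 and 3596 CPM with DEHP, and 1796, 2095 and 2617 CPM with the mixture. The DEHP libraries spread below the lowest and above the highest control. Log2 fold changes of the sum were 0.32 ± 0.22 (interval -0.14 to 0.78), 0.37 ± 0.22 (-0.08 to 0.83) and 0.12 ± 0.22 (-0.34 to 0.57). Without DEHP library 1 the DEHP value was 0.23. The mixture value was 0.076, 0.046 and 0.21 without control library 1, 2 or 3, and 0.067 and 0.18 without mixture library 1 or 3. Scaled within the tRNA class it was -0.0011. TGT-3-2, the most-read TGT reference, had 0.32 ± 0.22, 0.35 ± 0.22 and 0.11 ± 0.22.

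TGT-1-1, a low-count reference with 53 to 156 reads per library, had the smallest p for DEHP. Its levels were 5.35, 7.21 and 9.92 CPM (lowest, median, highest) in control and 9.76, 10.3 and 12.7 CPM with DEHP. The highest control was exceeded by 5 of the 6 DEHP libraries, and the groups met only at their edges. Its log2 fold change was 0.52 ± 0.19 (interval 0.12 to 0.91), with an unadjusted p of 0.0119 and an adjusted p of 0.999 (edgeR, Benjamini-Hochberg). It met the 1.5-fold criterion without control library 5 (0.61), on lane 6 alone (0.81) and with plain library totals (0.60). Without control library 2 it was 0.44. On lane 7, with no filter and with the tRNA class on its own, its unadjusted p for DEHP was not under 0.05.

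AGT-1-1 was next for DEHP, with 71.5, 98.7 and 114 CPM (lowest, median, highest) in control and 84.6, 155 and 167 CPM with DEHP. All controls were exceeded by 4 of the 6 DEHP libraries, and the log2 fold change of 0.48 ± 0.26 had an unadjusted p of 0.0756. In the DBP comparison the second smallest p was that of CGT-4-1. Its levels were 3.46, 6.03 and 8.14 CPM in control and 5.66, 7.76 and 13.3 CPM with DBP, with overlap. Its log2 fold change of 0.47 ± 0.21 had an unadjusted p of 0.0324, and it was 0.30 without DBP library 2.

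**Figure D4:**
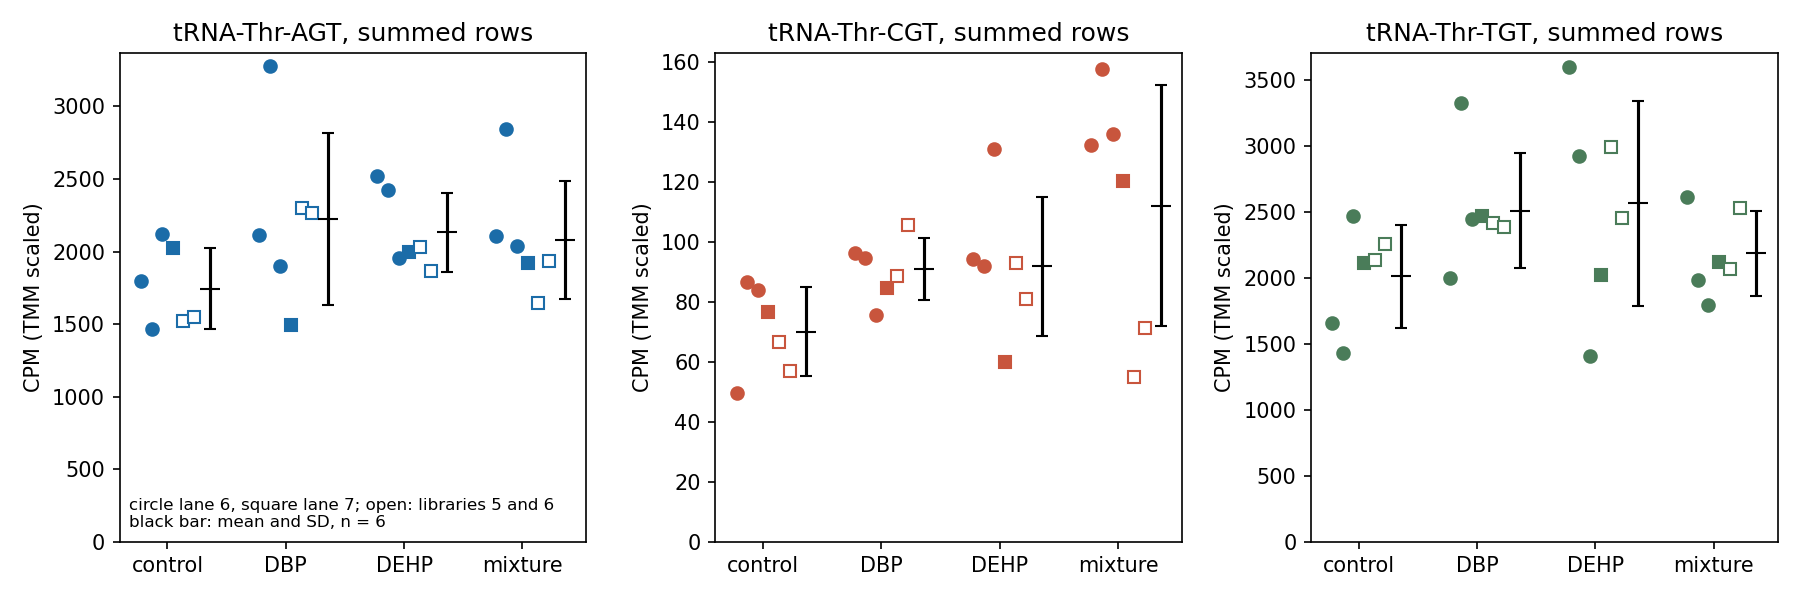
Summed level of the references of each anticodon in CPM (y axis, from 0), with a point per library, circles for lane 6, squares for lane 7 and open symbols for libraries 5 and 6. Black bars are mean and SD (n = 6). The CGT panel shows 4 mixture libraries above every control and 2 within the control range.

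The CGT references, which read ACG, had their largest difference from control with the mixture. Their sum in control libraries 1 to 6 was 49.6, 86.7, 83.9, 76.5, 66.6 and 57.0 CPM. In mixture libraries 1 to 6 it was 132, 157, 136, 120, 54.9 and 71.1 CPM. Libraries 1 to 4 of the mixture were above every control library, and libraries 5 and 6 were within the range of the controls.

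The DBP libraries had 75.6, 91.7 and 106 CPM (lowest, median, highest) and the DEHP libraries 60.1, 92.3 and 131 CPM. In each of these groups 4 of 6 libraries lay above the highest control. The log2 fold change of the CGT sum was 0.38 ± 0.21 with DBP (interval -0.05 to 0.82), 0.39 ± 0.21 with DEHP (-0.05 to 0.83) and 0.63 ± 0.21 with the mixture (0.19 to 1.07).

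For the mixture, the unadjusted p of the CGT sum was 0.00656 and its adjusted p over 7164 features was 0.999996 (edgeR, Benjamini-Hochberg), with 5 of 6 libraries above the control mean. A 1.5-fold difference at unadjusted p under 0.01 was met by 0.447% of all features in that fit. By size, CGT ranked 1 among the 50 sums of tRNA references by anticodon with the mixture, 2 with DEHP and 14 with DBP. The family was chosen by values from these same comparisons, so the ranks only describe these libraries. With the mixture the AGT and TGT sums had smaller log2 fold changes, of 0.24 and 0.12. As a share of threonine reads, CGT had 1.87% ± 0.536 in control, 1.93% ± 0.333 with DBP, 2.01% ± 0.863 with DEHP and 2.54% ± 0.829 with the mixture (SD, n = 6).

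Most of the CGT reads came from CGT-1-1. In control libraries 1 to 6 it stood at 22.6, 52.7, 46.8, 38.3, 32.9 and 26.9 CPM. In mixture libraries 1 to 6 it stood at 84.0, 91.1, 81.7, 69.8, 26.8 and 33.8 CPM. Mixture libraries 1 to 4 were again above every control and libraries 5 and 6 among the controls.

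The log2 fold change of CGT-1-1 for the mixture was 0.76 ± 0.24 (interval 0.26 to 1.27), with an unadjusted p of 0.00475 and an adjusted p of 0.9996 (edgeR, Benjamini-Hochberg). It was 1.07 on lane 6, 0.40 on lane 7 and 1.06 without libraries 5 and 6 of every group. Scaled within the tRNA class it was 0.47, with an unadjusted p of 0.0780, which no longer met the criterion. With DBP it was 0.40 ± 0.24 and with DEHP 0.41 ± 0.24, both with intervals that held 0.

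**Figure D5:**
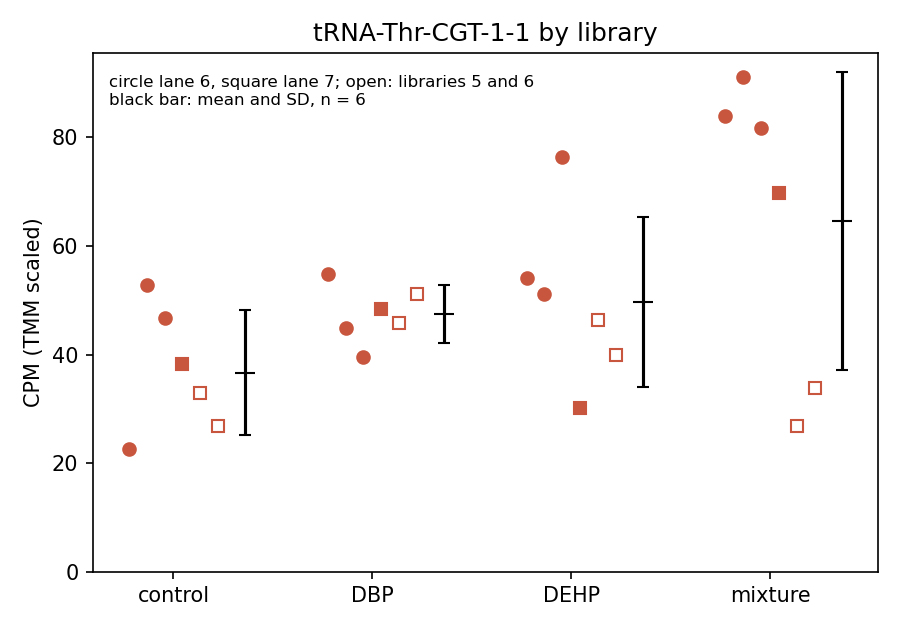
Level of tRNA-Thr-CGT-1-1 in CPM (y axis, from 0) in each library, circles for lane 6, squares for lane 7 and open symbols for libraries 5 and 6; black bars are mean and SD (n = 6). Mixture libraries 1 to 4 lie at 69.8 to 91.1 CPM, above the highest control at 52.7 CPM.

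Single libraries decided whether CGT-1-1 met the criterion of the labels. Leaving out each of the 24 libraries in turn, it did so 19 times and failed 5 times. It was 0.60 on the log2 scale without control library 1 (the lowest control), 0.71 without control library 6, and 0.72, 0.70 and 0.65 without mixture libraries 1, 2 and 4. The unadjusted p in those 5 fits ran from 0.0105 to 0.0182.

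CGT-2-1, the other 72-base CGT reference, had the second smallest p for the mixture. Its levels were 18.3, 25.4 and 28.7 CPM (lowest, median, highest) in control and 20.02, 39.8 and 53.2 CPM with the mixture. Every control was exceeded by 4 of 6 mixture libraries. CGT-2-1 had a log2 fold change of 0.57 ± 0.21 (interval 0.14 to 0.99), with an unadjusted p of 0.0112. CGT-3-1 had 0.47 ± 0.23 and CGT-4-1 had 0.16 ± 0.21, with intervals that held 0.

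A pair of lists places the family among tRNAs of like chemistry. Of 56 tested references of other tRNAs whose first anticodon base is adenosine, 52 had a log2 fold change above 0 with DBP (median 0.34), 40 with DEHP (0.17) and 42 with the mixture (0.14). Of these, 14, 1 and 2 of 56 were higher at unadjusted p under 0.05, where 2.46%, 1.38% and 1.25% of all features were, and none was lower at that p. The counts for DEHP and the mixture are of 1 and 2 references and are not read as a result. Of 82 tested references of other tRNAs with t6A, 77, 69 and 65 were above 0, with medians of 0.33, 0.18 and 0.16. At unadjusted p under 0.05, 15, 2 and 1 of the 82 were higher and none lower, beside the same background shares. Over the 323 tested tRNA references other than threonine the medians were 0.32, 0.16 and 0.14. Of those 323, 53, 7 and 8 were higher at that p and 0 lower. Whether either list differs from tRNA references in general was not tested. edgeR called 0 of either list after Benjamini-Hochberg adjustment in these comparisons. Median differences between the lists and the threonine family were not tested.

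DBP and DEHP, whose ester chains are straight butyl and branched ethylhexyl groups, were given at the same mass dose and time, which makes a single pair. The median log2 difference of DBP relative to DEHP was 0.06 over the 17 references, with 12 above 0, and 0.15 over the 340 tRNA references. It was -0.06 for threonine, with 4 of 17 above 0, when plain library totals were used, and -0.076 and -0.011 without DBP library 2 or 6. edgeR called 0 references after Benjamini-Hochberg adjustment, 0 had an unadjusted p under 0.05 (background 3.54%) and 0 met the 1.5-fold criterion (background 0.376%). Without DBP library 4, 1 had an unadjusted p under 0.05. The background share of that fit is not given, so the count is not read as a result.

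For the anticodon sums, the difference of DBP from DEHP was 0.04 for AGT (interval -0.35 to 0.44), -0.005 for CGT (-0.44 to 0.43) and -0.05 for TGT (-0.51 to 0.40). These intervals leave room for a difference in either direction, so that equal action of the compounds was not shown. The smallest unadjusted p values were those of AGT-5-1 (0.33 ± 0.22, p of 0.152 in edgeR) and AGT-4-1 (0.15 ± 0.17, p of 0.379). AGT-5-1 stood at 5.18, 9.502 and 12.4 CPM (lowest, median, highest) with DBP and at 6.49, 7.18 and 8.12 CPM with DEHP.

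The interaction, the log2 difference of the mixture from the sum of both single effects, was below 0 for 15 of 17 references, with a median of -0.49. Over the 340 tRNA references the median was -0.31, and over all features it was 0.01. Scaled within the tRNA class the threonine median was -0.20, with 12 of 17 below 0. Without libraries 5 and 6 the threonine median was -0.30, with 4 of 17 above 0, and the tRNA median was -0.32. edgeR called 0 references after Benjamini-Hochberg adjustment, with a smallest adjusted p of 0.993. At unadjusted p under 0.05 there was 1 reference, CGT-4-1, with -0.67 ± 0.29 (p of 0.0325), against a background of 4.04% in either direction and 2.13% for lower alone. The number was 0 without control library 2, DBP library 2 or 6, DEHP library 1 or 2, or mixture library 1. It was 2 without control library 5 or mixture library 6, 4 without DBP library 4 or DEHP library 3, and 5 without mixture library 2. The background shares are those of the fit with all libraries. None is given with libraries left out, so the counts with libraries left out are not read as a result. The 1.5-fold criterion was met by 0 references, with a background of 0.429%.

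The summed interaction was -0.40 ± 0.27 for AGT, -0.14 ± 0.30 for CGT and -0.58 ± 0.31 for TGT, each with a 95% interval that held 0. TGT-3-2 had -0.56 ± 0.30, with an unadjusted p of 0.0785. The CGT sum changed sign, to 0.12, on lane 6 alone and to 0.30 without libraries 5 and 6. The same control libraries enter the interaction and each comparison with control.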

How the data were processed

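Small RNA of cauda epididymosomes was sequenced in 24 libraries. The authors deposited counts, whole numbers of reads per reference. The submitters' processing notes name cutadapt and the aligner STAR 2.7.6a. Per the labels, 6 classes were searched in turn, from miRNA and tRNA to lncRNA. Build, strand and the sharing of multiply matched reads are not stated. References of a class other than these 6 were used only for mt-Tt.

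The 6 classes were fitted together with edgeR 4.0.16 (quasi-likelihood, two-sided, R 4.3.3), with terms for group and lane, features kept by filterByExpr (7454, all 17 threonine references among them) and TMM factors of 0.625 to 1.313. A second fit summed tRNA references by anticodon (7164 features). The biological coefficient of variation was 34.6%. P values set a difference between groups against the spread between libraries within groups, with lane in the model. Benjamini-Hochberg adjustment covered all features of a fit. The interaction is mixture minus DBP minus DEHP plus control. The SE of a log2 fold change was computed back from its size and edgeR's F statistic. Intervals are 95% intervals from that SE and a t quantile, and are approximate.

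On simulated data for DBP against control, 34% of 2-fold and 90% of 4-fold changes were recovered over 7454 features, and 46% and 82% over 7164.

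Alternatives were other scalings, filters, DESeq2 1.42.0, limma 3.58.1, lanes, a replicate block, and libraries left out. Named references are those with the most and fewest reads, the most-read of each anticodon and the 2 with the smallest p in each comparison. Members and lists were chosen with earlier results of these data known. Nuclear tRNA sequences were not used here.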

Additional observations from a re-analysis of the deposited data

Results flagged for a closer look

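Over 108 groups of 6 libraries (levels of each reference and sum, and shares), Dixon's test at the 95% level marked 12 groups where 1 library stood far from the rest, and chance marks about 1 in 20 groups. DBP library 2 was high for all threonine references together, at 6696 CPM where the next library had 4801. It was also high for the TGT sum (3324 CPM), TGT-2-1 (1231 CPM), TGT-3-1 (829 CPM) and TGT-3-2 (1249 CPM), which kept a near-constant ratio and are not separate marks. Its TMM factor was the lowest of the 24. Unscaled, threonine reads were 0.417% of the 6 classes in DBP library 2. The other DBP libraries ran from 0.352% (library 1) to 0.592% (library 5). The threonine total of DBP library 2 thus stood out after scaling and not before it. Without DBP library 2, the DBP log2 fold change was 0.23 for TGT and 0.24 for AGT.

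Mixture library 2 was high for AGT-1-1 (206 CPM), AGT-1-2 (135 CPM), AGT-1-3 (248.5 CPM) and AGT-3-1 (221 CPM), which also kept a near-constant ratio. DEHP library 1 was high for AGT-6-1, at 58.6 CPM. CGT references took 2.90% of threonine reads in control library 2 and 3.75% in DEHP library 3, each far above the rest of its group.

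The mean difference of DEHP from control had opposite signs on the lanes for AGT-5-1 (1.44 CPM on lane 6 and -0.896 CPM on lane 7) and for CGT-3-1 (0.555 and -0.33 CPM), with every DEHP library of a lane on the same side of the control mean. The difference between lanes was not tested, and both references have few reads.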

How the results depend on the processing

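No threonine reference or anticodon sum was called at adjusted p under 0.05 in any of the 36 settings run. The lowest adjusted p was 0.275 for a reference (TGT-1-1, DBP against control, lane 6 alone) and 0.578 for a sum. For TGT-1-1 with DEHP on lane 6 the adjusted p was 0.998 (edgeR, Benjamini-Hochberg). The number of references meeting 1.5-fold at p under 0.01 moved for DEHP from 0 to 1 with library totals and to 1 on lane 6. For the mixture it moved from 1 to 0 with the tRNA class on its own and to 0 on lane 7, to 2 on lane 6 and to 3 without libraries 5 and 6. With single libraries left out it ran from 0 to 1 for DBP, 0 to 1 for DEHP and 0 to 3 for the mixture. The shares of all features meeting this rule in those settings are not given, so these counts are not read as a result. The 9 sums against control stayed above 0 except TGT for the mixture with the tRNA class on its own (-0.0011).

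DBP relative to DEHP changed sign for AGT with library totals (-0.058), with the tRNA class on its own (-0.0301) and without libraries 5 and 6 (-0.0321). It did so for CGT with DESeq2 size factors (0.013), with at least 10 reads in 6 libraries (0.015), with DESeq2's own test (0.0129) and on lane 7 (0.24), and for TGT without libraries 5 and 6 (0.039). Leaving out single libraries gave -0.066 to 0.14 for AGT, -0.072 to 0.091 for CGT and -0.17 to 0.11 for TGT. The interaction for CGT was 0.12 on lane 6, 0.30 without libraries 5 and 6, and -0.23 to 0.017 with single libraries left out. The cause of these changes was not tested.

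The threonine share in control, DBP, DEHP and mixture libraries was 0.381%, 0.463%, 0.496% and 0.435% of the 6 classes, and 1.88%, 2.08%, 2.17% and 2.02% of tRNA reads without tRNA-Arg-CCG-3-1, both by construction of the denominator. Replicate numbers were not taken to pair the libraries, since the labels tie them to nothing and not every same-numbered pair correlated above 0.1 (28 of 36, median r 0.28, lowest -0.25). Other pairs on the same lane had a median r of 0.16 and pairs of different number as a whole -0.07, and 5 of 24 libraries correlated best with their own number. With a replicate block, 0 references were called and 3, 1 and 2 had p under 0.05 for DBP, DEHP and the mixture. The share of all features under that p with the block is not given. Depth limits AGT-7-1 most, at 4 to 23 reads per library.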
